A study of Mus musculus with 12 samples.

Results

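The members described here are 156 exon probesets whose signal moved between tumour lines while the level of their gene stayed nearly the same. They lie in 114 genes and were selected on the measured values themselves, from 107892 eligible probesets in 7356 genes, out of 228090 probesets in the deposited table. A probeset was eligible if it named 1 gene, if that gene had at least 4 probesets and a level over 7.4 averaged over the 12 arrays, and if its own mean signal was over 6, all on the log2 scale. The level of a gene is the median log2 signal of its probesets on an array, and the relative value of a probeset is its log2 signal minus that level. Members were then chosen by the difference between the mean of 4T07 and 4T1 and the mean of 67NR and 168FARN. The gene level had to differ by less than 0.5 and the relative value by at least 0.8. Since this difference set the membership, its values are given as a description and carry no test.

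Most mammalian genes can join their exons in more than 1 way, or start and end transcription at more than 1 place, so that a single gene yields several transcripts. An exon array carries probesets along the gene, and a probeset that departs from its gene's level can be the sign of a transcript that holds more or less of that stretch. In mammary carcinoma cells, exons of adhesion, cytoskeletal and matrix genes are known to be switched when cells pass between epithelial and mesenchymal states. Which exon a member covers was not analysed here, so the members are named by gene and probeset number.

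Mouse mammary carcinoma cells of the lines 67NR, 168FARN, 4T07 or 4T1 had been grown as primary tumours, and 3 arrays were made per line. Cells of 1 line were placed in the mammary fat pad number 4 of female BALB/c mice aged 3 months, with 8 mice for 67NR, 11 for 168FARN, 15 for 4T07 and 13 for 4T1, and tumours were removed when the group averaged 1 to 2 cm. No group carried a further treatment or allele, and each behaviour is represented by a single cell line growing together with host cells. In published use of this model, 67NR stays at the primary site, 168FARN is found in lymph nodes, 4T07 reaches the lung without outgrowth and 4T1 forms lung metastases, so the rule set the lines that reach the lung against the other pair. Nothing states that each array is from its own animal, so the p-values below reflect how far these arrays scatter, which could be technical scatter only.

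Marker lists of other cell types differed between the tumours. The mean level of the neutrophil marker list was 5.96 to 6.43 on the 67NR arrays and 6.31 to 6.79 on the 168FARN arrays, against 8.15 to 8.34 in 4T07 and 7.52 to 7.82 in 4T1. The epithelial list ran from 5.90 to 6.51 on the 67NR and 168FARN arrays and from 7.69 to 8.82 on the others, and its 4T07 values were 7.89, 7.69 and 8.82. The fibroblast list was 8.58 to 8.98 in 67NR, 10.15 to 10.31 in 168FARN, 9.10 to 9.68 in 4T07 and 9.12 to 9.46 in 4T1. The skeletal muscle list was 5.45 on 168FARN array 1 but 7.99 and 8.92 on arrays 2 and 3. Of 17 measured neutrophil markers, 10 had a mean at background in 67NR, 5 in 168FARN, 0 in 4T07 and 3 in 4T1, and of 26 epithelial markers 13 did in 67NR, 11 in 168FARN, 4 in 4T07 and 3 in 4T1. Of 15 muscle markers 12 were at background in 67NR, 2 in 168FARN, 10 in 4T07 and 8 in 4T1. Of the markers on these lists, 0 were host genes of a member. The part of these cell types in the member differences was not tested, and in bulk tissue fewer cells of a type and less RNA per cell cannot be told apart.

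The 156 members were 0.145% of the eligible probesets. Relative to their genes, 87 members in 63 genes were higher in 4T07 and 4T1, and 69 members in 54 genes were lower. The size of the relative difference ran from 0.80 to 3.71 with a median of 0.919, and it was under 1 in 97 members. The probeset's own signal differed by at least 0.8 in the same direction in 112 members, 56 higher and 56 lower, while in 12 it differed by less than 0.5. Just inside the threshold stood Ttc1 at -0.80 and Rrm2b at 0.80, and just outside it Ints6 and Cyfip1 with relative differences of -0.79996 and 0.79864.

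**Figure D1:**
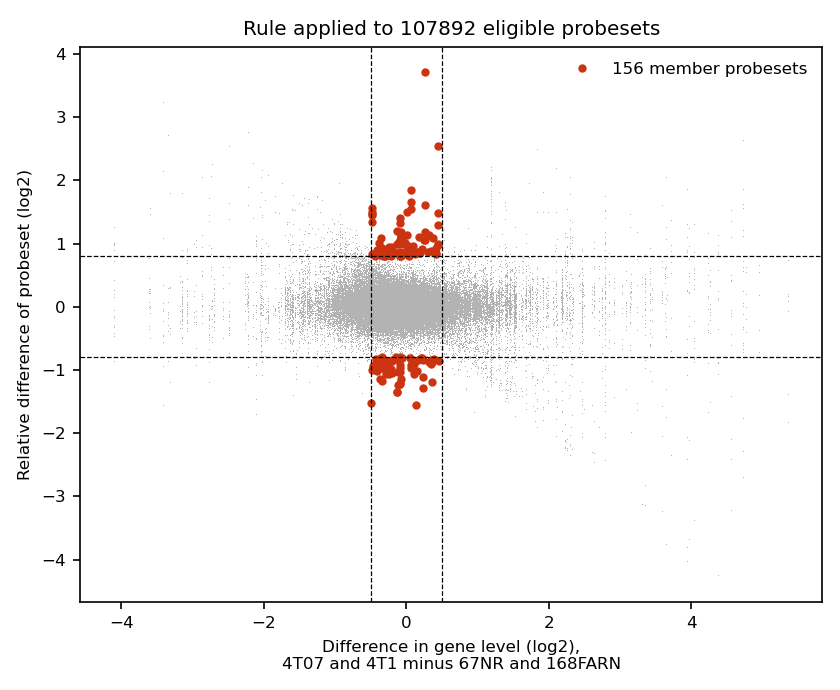
Each grey dot is 1 of the 107892 eligible probesets and each red dot 1 of the 156 members, plotted by the difference in gene level (horizontal axis, log2) and in relative value (vertical axis, log2), both as 4T07 and 4T1 minus 67NR and 168FARN. The dashed lines are the limits of the rule at 0.5 and 0.8, and most members lie close to the horizontal limits, with a few reaching up to 3.71.

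Members were dimmer and noisier than the probesets they were drawn from. Their median signal was 7.30, against 8.88 for all eligible probesets, and 119 of them (76.3%) lay below the level of their own gene, against 47.1% of the eligible ones. The median SD of the relative value within a line was 0.419 for members and 0.201 for eligible probesets. In 51 members the mean of at least 1 line lay under 5.98, the 95th percentile of the signals of 2143 olfactory receptor probesets, which serve here as a scale of background. A fold change from or to such a level can be understated. The relative values of the 6 arrays on 1 side of the rule did not overlap those of the other 6 in 53 members, 33 higher and 20 lower. The same was true of 1.31% of the eligible probesets, but the rule used this contrast, so nothing is read from the difference.

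The line means did not all split into the pairs the rule set against each other. When the 4 relative means were ordered and divided at their widest gap, 41 members had 4T07 and 4T1 above the rest and 23 had 67NR and 168FARN above. In the remaining members 1 line stood alone, most often 168FARN, which was low in 26 and high in 17. 4T1 was low in 17 and high in 9, 67NR was low in 11 and high in 10, and 4T07 was low in 2.

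Of the host genes, 96 held 1 member, 9 held 2 and 9 held at least 3. The last group contained 42 members, namely 8 in Sptbn1, 7 in Med24, 5 each in Cd44, Etl4 and Ift172, and 3 each in Dmrta2, Ifi27, Srxn1 and Zxdc. Members of 1 gene share its transcripts and its gene level, so they are not independent of each other. Only Sptbn1, Etl4 and Glcci1 among the 114 host genes held members in both directions.

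Host genes and eligible genes both had a median of 2 curated transcripts in RefSeq. There, 77 of the 113 host genes that could be matched (68.1%) had at least 2 curated transcripts, against 52.3% of the eligible genes, and their median number of probesets was 16.5 against 13. Promoter windows from RefSeq were found for 93 host genes, 30 of them (32.3%) with at least 2, against 21.4% of the 6041 eligible genes with a window. These shares were not tested.

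Sptbn1 and Etl4 are shown by sequence because each held members in both directions and RefSeq gives each more than 1 start. The lines below give the 250 bases before each start in RefSeq's mouse assembly GRCm38.p6, read 5′ to 3′ on the gene's strand, with each CG pair in capitals. The Sptbn1 windows are on the minus strand at chr11:30219773-30220022 and chr11:30198258-30198507, 21515 bases apart, and hold 2 and 20 CG pairs. The Etl4 windows are on the plus strand at chr2:20289663-20289912, chr2:20509797-20510046 and chr2:20519263-20519512 and hold 1, 9 and 2. CG was searched as those letters, which read the same on both strands. Across the 7818 windows of eligible genes the median was 16 and 99.1% held at least 1. No member was placed relative to these starts here.
Sptbn1 start 1: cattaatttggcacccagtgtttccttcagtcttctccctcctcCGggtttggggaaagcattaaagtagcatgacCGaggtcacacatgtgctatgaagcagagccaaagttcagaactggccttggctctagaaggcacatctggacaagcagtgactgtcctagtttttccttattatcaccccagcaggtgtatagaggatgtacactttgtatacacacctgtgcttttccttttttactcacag
Sptbn1 start 2: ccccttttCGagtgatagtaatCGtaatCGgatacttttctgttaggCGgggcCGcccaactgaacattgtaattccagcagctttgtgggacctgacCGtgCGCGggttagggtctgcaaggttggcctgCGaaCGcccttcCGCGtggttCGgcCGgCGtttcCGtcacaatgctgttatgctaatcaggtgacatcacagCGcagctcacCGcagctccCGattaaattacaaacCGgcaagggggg
Etl4 start 1: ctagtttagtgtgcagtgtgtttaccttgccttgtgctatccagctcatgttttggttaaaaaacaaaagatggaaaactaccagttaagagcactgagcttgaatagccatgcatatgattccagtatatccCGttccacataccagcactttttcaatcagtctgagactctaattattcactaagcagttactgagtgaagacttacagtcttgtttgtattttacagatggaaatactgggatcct
Etl4 start 2: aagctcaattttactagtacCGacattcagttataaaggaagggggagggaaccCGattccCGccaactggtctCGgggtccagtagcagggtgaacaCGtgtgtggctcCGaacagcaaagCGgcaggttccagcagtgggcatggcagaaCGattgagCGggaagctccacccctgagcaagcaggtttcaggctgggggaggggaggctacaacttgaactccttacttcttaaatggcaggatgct
Etl4 start 3: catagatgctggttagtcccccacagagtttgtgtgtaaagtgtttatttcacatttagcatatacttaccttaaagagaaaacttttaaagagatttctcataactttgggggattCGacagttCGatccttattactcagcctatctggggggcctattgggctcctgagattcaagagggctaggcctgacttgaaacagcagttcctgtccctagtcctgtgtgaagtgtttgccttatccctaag

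Sptbn1 encodes beta-II spectrin, a rod-like protein of the skeleton under the plasma membrane. Its gene level was nearly equal in the 4 lines, 9.86 ± 0.12 in 67NR, 10.01 ± 0.13 in 168FARN, 9.75 ± 0.42 in 4T07 and 9.93 ± 0.06 in 4T1 (SD, n = 3 arrays each, as in all values written this way). Within that steady gene, 3 probesets were higher and 5 were lower in 4T07 and 4T1, while the other 40 eligible probesets had relative differences from -0.60 to 0.23. Probeset 4684563, a higher member, read 7.74, 7.86 and 8.13 in 67NR, 7.16, 7.08 and 7.74 in 168FARN, 8.87, 8.55 and 9.39 in 4T07, and 8.79, 8.84 and 9.16 in 4T1. All 6 arrays of 4T07 and 4T1 were above the 6 others. The other higher members, 5559217 and 5270878, had relative differences of 1.33 and 1.05, beside 1.41 for 4684563.

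The lower Sptbn1 members followed 168FARN. Probeset 4714648 read 8.54, 8.44 and 8.13 in 67NR, 9.65, 9.80 and 9.56 in 168FARN, 7.80, 7.39 and 8.07 in 4T07, and 7.84, 7.4 and 7.73 in 4T1. The 168FARN arrays were the highest, 67NR lay between, and 4T07 and 4T1 overlapped each other at the bottom. The 5 lower members (4714648, 4711529, 4884064, 5422663 and 4877280) had relative differences from -1.22 to -0.92.

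Med24 encodes a subunit of Mediator, the complex that links transcription factors to RNA polymerase. Its gene level stayed between 8.78 and 9.13 as a mean in each line, and 7 of its 27 eligible probesets were members, all higher, with relative differences from 0.99 to 1.19. Probeset 4648201 read 9.51, 9.85 and 9.65 in 67NR, 9.53, 9.46 and 9.61 in 168FARN, 9.81, 9.86 and 10.68 in 4T07, and 11.31, 11.34 and 11.26 in 4T1. The 3 arrays of 4T1 were high together. In 4T07, array 3 stood above arrays 1 and 2, as it did for all 7 Med24 members. The 20 remaining probesets had relative differences from -0.48 to 0.72, the highest of them close below the members.

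Ift172 encodes a protein of intraflagellar transport, the traffic that builds cilia. It held 5 higher members among 50 eligible probesets, with relative differences from 0.83 to 1.57. The gene level itself differed by -0.48, close to the limit of the rule, so part of each relative value came from the level. The members' own signals differed by 0.35 to 1.09. Each of the 5 members failed the rule when some 1 array was left out. Probeset 4979678 read 6.77, 6.68 and 5.77 in 67NR, 6.96, 7.16 and 6.96 in 168FARN, 6.76, 7.44 and 8.59 in 4T07, and 7.80, 8.05 and 8.19 in 4T1. The 4T1 arrays were above all arrays of 67NR and 168FARN, but 4T07 array 1 fell among them. The mean gene level was 7.36 in 67NR, 8.07 in 168FARN, 7.42 in 4T07 and 7.05 in 4T1, so that 4T1 was highest for the probeset and lowest for the gene.

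**Figure D2:**
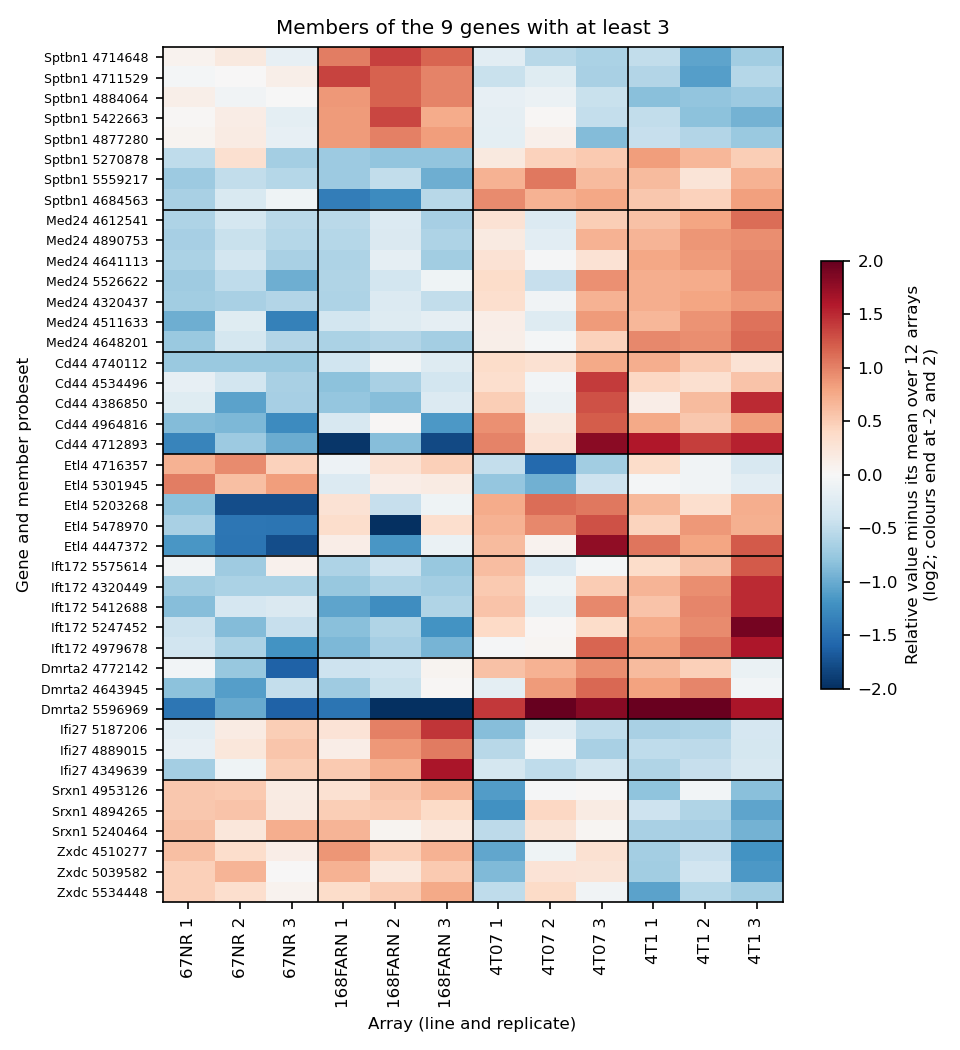
Rows are the 42 members of the 9 genes with at least 3 members and columns are the 12 arrays; colour is the relative value minus its mean over the 12 arrays (log2), with colours ending at -2 and 2. Members of 1 gene and direction share much of their pattern, the 5 lower Sptbn1 members are highest in 168FARN, and 4T07 array 3 stands above 4T07 array 2 in all 7 Med24 rows.

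Etl4, a gene with a known part in the forming of intervertebral discs, held 3 higher and 2 lower members among 26 eligible probesets. Its gene level was steady only as an average over pairs of lines, since it was 8.23 ± 0.23 in 67NR, 6.83 ± 0.31 in 168FARN, 7.12 ± 0.79 in 4T07 and 8.07 ± 0.09 in 4T1. Probeset 5301945 followed the first of these lines, with 10.03, 10.07 and 10.10 in 67NR, 7.2, 8.14 and 8.19 in 168FARN, 7.06, 6.57 and 8.62 in 4T07, and 8.94, 9.08 and 8.88 in 4T1. Probeset 4447372 instead read 6.20, 6.36 and 5.83 in 67NR, 5.96, 5.21 and 6.24 in 168FARN, 6.82, 5.95 and 9.15 in 4T07, and 8.41, 8.30 and 8.66 in 4T1. The 67NR arrays were thus the highest for the former and among the lower ones for the latter, and 4T07 array 3 was again above its companions.

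Dmrta2, a transcription factor of the DM-domain family, had the largest difference of any member. Probeset 5596969 read 4.13, 5.07 and 4.53 in 67NR, 4.39, 3.03 and 3.11 in 168FARN, 7.51, 8.32 and 7.76 in 4T07, and 8.22, 8.10 and 8.16 in 4T1. The relative difference was 3.71 with a gene level between 7.83 and 8.27 in every line, and the arrays of 67NR and 168FARN lay under the background scale of 5.98. The mean signal of this probeset, 6.03, was the lowest of any member and passed the minimum of 6 only through 4T07 and 4T1. It failed the rule when some 1 array was left out. Members 4643945 and 4772142 of the same gene differed by 1.18 and 1.06, while its 9 other eligible probesets ran from -0.17 to 0.42.

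Cd44, the hyaluronan receptor known for its variable exons, held 5 higher members with relative differences from 0.98 to 2.54. The largest, 4712893, had means of 5.67 in 67NR, 4.41 in 168FARN, 7.72 in 4T07 and 8.34 in 4T1 beside a gene level of 8.64 to 9.53. The 67NR and 168FARN means of 4712893 lay under the background scale. Its mean signal, 6.53, passed the probeset minimum only through 4T07 and 4T1. Member 4386850 was also under that scale in 67NR and 168FARN, at 5.82 and 5.11. Member 4534496 was under it in 168FARN only, at 5.57. The other eligible probesets of Cd44 ran from -0.52 to 0.26. Its gene level itself differed by 0.45, close to the limit of the rule, and each of the 5 members failed the rule when some 1 array was left out.

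The 3 genes with only lower members in this group behaved less alike. Srxn1 encodes sulfiredoxin, which restores oxidized peroxiredoxins. Its probeset 5240464 read 9.90, 9.92 and 9.95 in 67NR, 9.89, 9.60 and 9.60 in 168FARN, 8.67, 9.10 and 8.79 in 4T07, and 8.26, 8.43 and 8.13 in 4T1, so that the signals of the 2 sides did not overlap. The relative difference of this probeset was -0.82, and the gene level itself differed by -0.42. Each of the 3 Srxn1 members failed the rule when some 1 array was left out. Ifi27, an interferon-induced gene with close relatives in the genome that may share signal, had members with relative differences from -1.06 to -0.87. Its 4349639 read 7.11, 7.86 and 7.82 in 67NR, 8.76, 9.16 and 9.78 in 168FARN, 7.31, 6.95 and 7.60 in 4T07, and 7.26, 7.27 and 7.47 in 4T1. Only the 168FARN arrays of Ifi27 stood clear of the rest. Zxdc, a zinc finger protein that takes part in MHC class II transcription, ranged from -1.05 to -0.84.

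**Figure D3:**
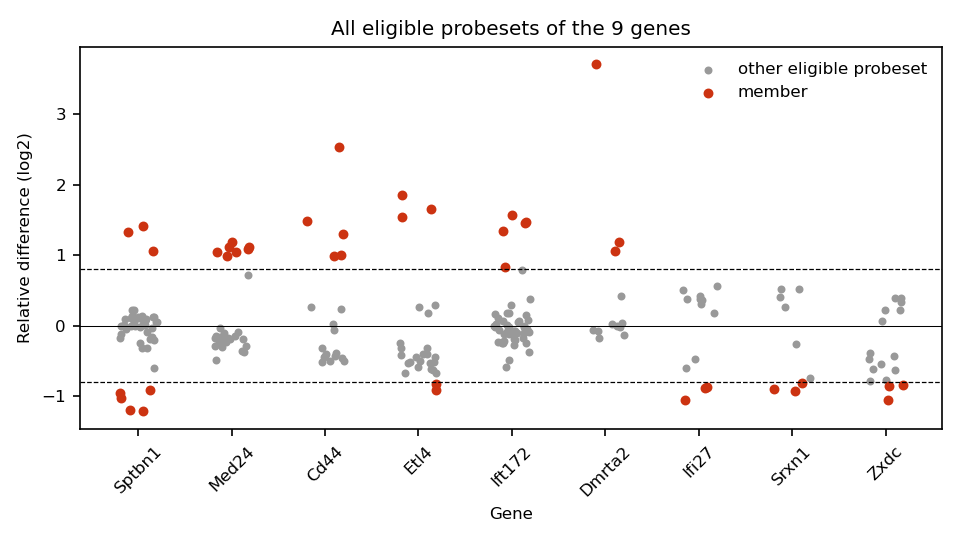
Each dot is 1 eligible probeset of the 9 genes with at least 3 members, at its relative difference between 4T07 and 4T1 and 67NR and 168FARN (vertical axis, log2); members are red and dashed lines mark 0.8 and -0.8. In Sptbn1 the members stand apart on both sides of the 40 others, whereas in Zxdc the other probesets reach down to -0.79, close to the limit.

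Among genes with fewer members, the largest negative differences were in Rps24, Pcdhgb7 and Arhgef3. Rps24 encodes a protein of the small ribosomal subunit with known alternative exons near its end. Its probeset 4561635 read 9.74, 9.47 and 9.48 in 67NR, 10.31, 10.22 and 10.49 in 168FARN, 8.80, 8.72 and 8.72 in 4T07, and 8.52, 8.14 and 8.23 in 4T1. The lines followed each other without overlap, and the relative difference was -1.56. Rps24 has copies elsewhere in the genome, and the counting of shared signal was not analysed here.

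Pcdhgb7 belongs to the gamma protocadherins, adhesion proteins whose isoforms share their last exons. Probeset 4785195 had 9.08, 8.37 and 8.67 in 67NR, 7.55, 7.04 and 7.36 in 168FARN, 6.39, 6.05 and 6.0 in 4T07, and 5.81, 5.87 and 5.84 in 4T1. The signals again stepped down from line to line, and the relative difference was -1.53. The gene level rested on 4 probesets and itself differed by -0.49, close to the limit of the rule. Slc44a1, a choline transporter, had 2 lower members. Its 5011592 read 8.79, 8.84 and 8.45 in 67NR, 7.33, 7.80 and 7.35 in 168FARN, 6.20, 6.78 and 6.56 in 4T07, and 6.39, 7.08 and 6.43 in 4T1, with no array of 4T07 or 4T1 reaching the others. The gene level of Slc44a1 was also highest in 67NR, at 10.49 ± 0.08.

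Other large negative differences were those of Arhgef3, an activator of the small GTPase RhoA, at -1.35, Kifap3, an adaptor of the kinesin-2 motor, at -1.35, and Ppm1h, a protein phosphatase, at -1.29. Wdfy1, a protein of early endosomes, was at -1.23, Kctd10, an adaptor of cullin-3 ubiquitin ligases, at -1.19, Lyz1, a lysozyme with a near-identical neighbour, at -1.14, and Dennd6a, an activator of Rab14, at -1.14. Arrays of the 2 sides overlapped in Kifap3, Wdfy1 probeset 4618823, Kctd10 and Dennd6a. For Dennd6a the 4T07 arrays alone spanned 3.74, 5.77 and 6.97.

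Of the higher members, Col4a1 encodes a chain of basement membrane collagen. Its probeset 5242774 had 8.48, 8.29 and 8.17 in 67NR, 9.23, 8.83 and 9.19 in 168FARN, 9.70, 9.21 and 9.81 in 4T07, and 9.54, 10.02 and 10.11 in 4T1. The signal of 4T07 array 2 fell among the 168FARN values, but relative to the gene the 6 and 6 arrays did not overlap, and the relative difference was 1.51. The Col4a1 gene level differed by -0.47, so part of that relative value came from the level. Aopep, an aminopeptidase, differed by 1.61. Its probeset 4628705 read 5.64, 5.86 and 6.38 in 67NR, 6.22, 5.78 and 5.43 in 168FARN, 6.75, 7.82 and 7.61 in 4T07, and 8.36, 8.03 and 8.04 in 4T1. Every 4T07 and 4T1 array was above the rest in signal. Col18a1, another basement membrane collagen, differed by 1.13 and Ccdc186, a protein of dense-core vesicle formation, by 1.14, but in both 168FARN array 3 lay far above arrays 1 and 2.

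**Figure D4:**
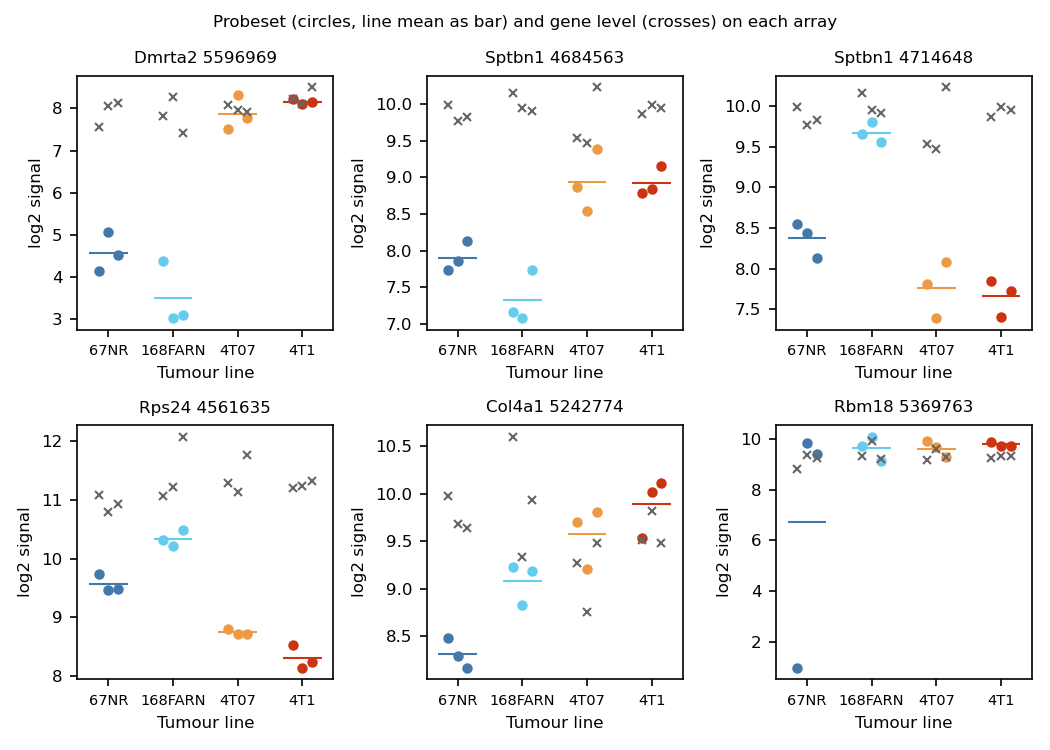
Log2 signal of 6 member probesets (circles, 1 per array, with the line mean as a bar) and of the gene level (crosses) in the 4 lines. Dmrta2 5596969 lies between 3.03 and 5.07 in 67NR and 168FARN and between 7.51 and 8.32 in 4T07 and 4T1 at a steady gene level, Sptbn1 shows a higher and a lower member, and Rbm18 5369763 differs through 67NR array 1 alone, at 0.98.

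Some of the largest differences rested on 1 array. Rbm18, a protein with an RNA-binding motif, read 0.98 on 67NR array 1 and between 9.14 and 10.09 on the 11 others, and its relative difference of 1.49 became 0.14 without that array. Ogfr, a receptor of opioid growth factor, read 1.96 on the same array and 9.36 and 9.46 on the other 67NR arrays. Tbc1d19, a protein with a Rab GTPase-activating domain, read 2.84 on 168FARN array 2 against 9.10 and 9.75. Their relative differences of 1.10 and 1.20 moved to -0.13 and 0.09 without that array. In all, 21 members had an array more than 2 below or above both others of its line, 15 with the array below and 7 with it above, Otud6b counting in both. Leaving out each array in turn brought 7 members under 0.4, namely Tbc1d19, Ogfr, Rbm18, Psmc1, Mms19, Rps6ka3 and Fam118a. Of the 156 members, 48 in 30 genes met the rule without any 1 of the 12 arrays.

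The members were compared with the genes known for exons regulated in the epithelial-mesenchymal transition. Of 78 listed genes, 62 could be tested and 47 had a steady level, and 7 were host genes: Cd44, Fn1, Macf1, Plec, Pard3, Rps24 and Vegfa. Among all 5460 genes with a steady level, 114 were host genes. The 7 genes held 11 members, 5 of them in Cd44. All genes of the list together, steady or not, had 1771 eligible probesets. Among all 107892 eligible probesets there were 156 members (0.145%). Plec encodes plectin, which ties intermediate filaments to junctions. Its probeset 5058873 read 10.79, 11.22 and 10.96 in 67NR, 10.25, 10.22 and 10.48 in 168FARN, 9.20, 9.39 and 8.95 in 4T07, and 9.62, 9.68 and 9.08 in 4T1, a relative difference of -0.91 without overlap. Macf1, a linker of actin and microtubules, and Pard3, a polarity scaffold, differed by 0.87 and 0.85, and Vegfa, the vessel growth factor, by -1.07. In these 3 the arrays of the 2 sides overlapped.

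At gene level, 11 of the 62 tested genes of this list rose in 168FARN against 67NR and 22 fell, against 40.7% of all 7356 genes called in either direction by limma. Of the factors that control splicing, 71 were listed and 56 tested, of which 4 rose and 8 fell in the same contrast. The rises were Mbnl2 at 0.45, Ddx17 at 0.52, Rbm38 at 0.65 and Clk4 at 0.40, and the largest falls were Mbnl3 at -1.70 and Rbm47 at -1.24. Between 4T1 and 4T07, Rbm47 rose by 0.62 and Enah, an actin regulator of the first list, fell by 0.66, each the 1 gene of its list called, against 4.23% of all genes. The Rbm47 call was lost without any 1 of the 67NR or 4T1 arrays and without 4T07 array 2. Srsf7, an SR protein, was the only splicing factor that held a member, at -0.81 relative, with its arrays overlapping.

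The rule did not use the difference between 168FARN and 67NR or that between 4T1 and 4T07, so the members could be tested there. A shift in 1 line alone, however, moves both the difference of the rule and a tested one. By the widest gap, 168FARN stood alone low in 26 members and high in 17. The shares called and the sizes of change in members are therefore not free of the choice, and nothing is read from their excess over the eligible probesets. Relative values were tested with limma over all 107892 eligible probesets, with Benjamini-Hochberg adjustment. Between 168FARN and 67NR, 16 of the 156 members (10.3%) had an adjusted p under 0.05, 10 higher and 6 lower in 168FARN, against 0.533% of the eligible probesets. At an unadjusted p under 0.05 stood 53 members, against 10.3% of the eligible probesets, and diffSplice, which compares each probeset with the others of its gene, called 39 against 1.10%. The 39 included Atp9b, Mms19, Ogfr, Psmc1, Rbm18 and Tbc1d19, where 1 array of 67NR or 168FARN lay more than 2 below both others of its line. They also included Cacybp, Ccdc186, Col18a1 and Otud6b, where 1 array of 168FARN lay more than 2 above both others. The fibroblast list, given above, was higher on every 168FARN array than on every 67NR array, and its part in these changes was not tested. The median size of the change was 0.526 in members and 0.137 in eligible probesets. The count called by limma was 10 without 67NR array 1, 10 without 67NR array 3 and 9 without 168FARN array 1. Of the eligible probesets, 0.317%, 0.338% and 0.298% were called in these fits.

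Between 4T1 and 4T07, limma called 0 members, against 0.00834% of the eligible probesets. At an unadjusted p under 0.05 stood 30 members, against 6.50% of the eligible probesets, the smallest adjusted p was 0.259, for Med24 probeset 4648201, and the median size was 0.292 against 0.125. By diffSplice 7 members were called, against 0.166%: Erbin 5439115, Fn1 5201971, Glcci1 4854618, Gpat4 5099514, Rps6ka3 4649370, Vegfa 5308703 and Zdhhc6 5283477. In 2 of them 1 array of 4T1 lay far below its companions: Zdhhc6 read 2.10 on array 1 against 4.29 and 6.04, and Rps6ka3 read 3.15 on array 2 against 6.14 and 6.78.

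**Figure D5:**
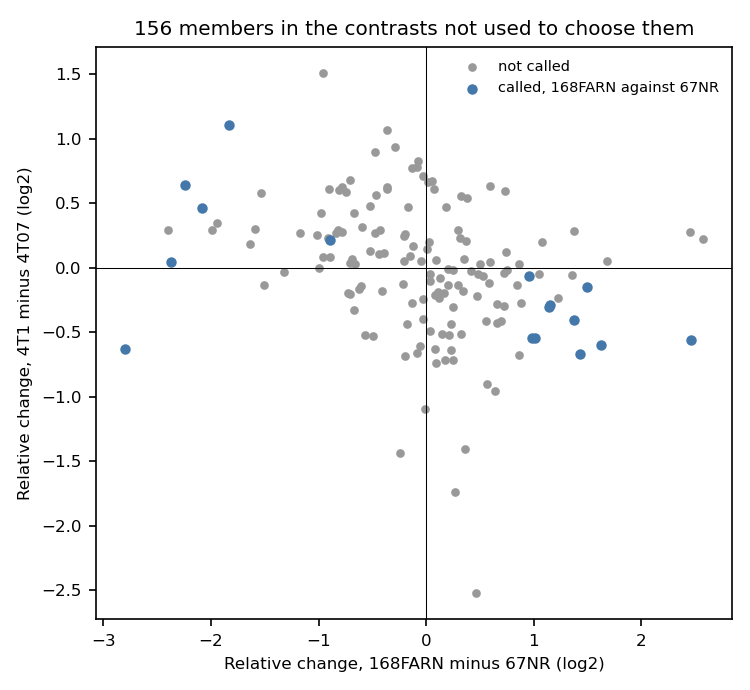
Each dot is 1 of the 156 members at its relative change (log2) from 67NR to 168FARN (horizontal axis) and from 4T07 to 4T1 (vertical axis), the contrasts that did not choose the members. The 16 members called by limma between 168FARN and 67NR are blue, 10 to the right and 6 to the left, and 0 were called on the vertical axis.

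Of the 10 members higher in 168FARN relative to their gene, 4 were in Sptbn1. For 4884064 the relative change was 1.01 (SE 0.12, limma adjusted p = 0.00387), on signals of 9.95, 9.55 and 9.67 in 67NR and 10.88, 10.99 and 10.76 in 168FARN, which did not overlap. The largest rise was in Tspan11, a tetraspanin, whose probeset 4799240 read 4.15, 3.09 and 4.27 in 67NR and 9.93, 9.95 and 9.63 in 168FARN. Its gene level rose as well, from 6.16 ± 0.26 to 9.69 ± 0.33, and the relative change was 2.46 (SE 0.21, limma adjusted p = 0.000443).

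Fn1 encodes fibronectin, a matrix protein with alternative exons. Probeset 5201971 read 10.12, 10.28 and 10.12 in 67NR, 12.45, 11.50 and 12.45 in 168FARN, 10.60, 10.62 and 10.66 in 4T07, and 10.10, 9.87 and 9.95 in 4T1. The 168FARN arrays were the highest, and the 4T07 arrays lay above those of 67NR and 4T1. Between 168FARN and 67NR the relative change was 1.62 (SE 0.20, limma adjusted p = 0.00454), at a gene level of 13.10 to 13.45.

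Cryab encodes alpha B-crystallin, a small heat shock protein that muscle also makes. Its probeset 5544839 read 9.12, 9.46 and 9.17 in 67NR and 10.95, 10.54 and 10.33 in 168FARN, a relative change of 1.49 (SE 0.18, limma adjusted p = 0.00458). The muscle list was at 5.45, 7.99 and 8.92 on those 168FARN arrays, and its part in the change was not tested. The rest of the relative rises were in Kctd10, the calpain inhibitor Cast (5424210) and Etl4 (5203268). In Etl4 the relative change was 1.37 while the gene level fell, from 8.23 ± 0.23 in 67NR to 6.83 ± 0.31 in 168FARN. The signal of the Etl4 probeset itself did not rise. With 168FARN array 1 as the sole array of its line, 6 of the 16 members were called, but that fit takes its spread from the other lines and assumes that 168FARN varies like them.

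In several of the 6 members lower in 168FARN, the gene moved and the probeset did not follow. P2ry14 encodes a receptor for UDP-sugars. Its probeset 5483517 read 8.98, 9.18 and 8.78 in 67NR and 9.0, 9.22 and 8.61 in 168FARN, which overlapped, while the gene level rose from 7.13 ± 0.23 to 8.92 ± 0.31. The relative change was -1.83 (SE 0.20, limma adjusted p = 0.00239).

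Pdzrn3, a ubiquitin ligase with PDZ domains, had the smallest adjusted p. Probeset 4571296 read 9.86, 10.11 and 9.69 in 67NR and 9.05, 9.21 and 9.09 in 168FARN, while the gene level went from 7.83 ± 0.09 to 9.43 ± 0.09. The signal was thus lower where its gene was higher, and the relative change was -2.37 (SE 0.11, limma adjusted p = 2.53e-05). Matn2, a matrilin of the extracellular matrix, and Grem1, an antagonist of bone morphogenetic proteins, had relative changes of -2.80 and -2.09, but their probesets were higher in 168FARN. Grem1 probeset 4630672 read 5.15, 5.92 and 5.96 in 67NR and 10.10, 9.95 and 9.05 in 168FARN, beside a gene level of 4.55 ± 0.41 and 10.66 ± 0.53. The 67NR levels of both genes were under the background scale. The remaining pair was Slc27a1, a fatty acid transporter, and 4933434E20Rik. Over the alternative settings in which they were tested, Pdzrn3, Tspan11, Fn1 and Matn2 had an adjusted p under 0.05 in limma or diffSplice. Of these, Tspan11 probeset 4799240 and the Matn2 gene level were under the background scale in 67NR. Without 168FARN, the Matn2 and Grem1 gene levels would average 7.18 and 6.50, under the minimum of 7.4, so both were tested only because they were high in 168FARN. Without 67NR, the Etl4 gene level would average 7.34, also under 7.4, against 8.23 in 67NR. Etl4 5203268 was thus tested only because its gene was high in 67NR. The other calls depended on the setting. Slc27a1 was called in 14 of 22 settings, 4933434E20Rik and Cast 5424210 in 9 of 22 each, Sptbn1 5422663 in 8 of 22, Kctd10 in 17 of 22 and Etl4 5203268 in 3 of 19. Sptbn1 4714648 and 4711529 were called in 19 of 22 each, Sptbn1 4884064 in 21 of 22, Cryab in 20 of 22, P2ry14 in 20 of 21 and Grem1 in 16 of 17.

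Steadiness was required only in the contrast of the rule. By the limma test at gene level, 51 of the 114 (44.7%) differed between 168FARN and 67NR, 35 higher and 16 lower in 168FARN. The shares were 40.7% of all 7356 genes and 37.2% of the 5460 genes with a steady level. Called and at least 2-fold were 14 of the 114 host genes, beside 634 of the 7356 genes. Gpnmb, a membrane glycoprotein of macrophages and bone, had mean levels of 6.0 in 67NR and 12.18 in 168FARN. Grem1 had 4.55 and 10.66, the former under the background scale of 5.98. Of the 114 host genes, 5 (Glcci1, Grem1, Ift172, Matn2 and Uqcc1) would not pass the minimum gene level without 168FARN. Between 4T1 and 4T07, 9 of the 114 (7.89%) differed, against 4.23% of all genes and 2.27% of the steady ones. Gpnmb was lower in 4T1 by -2.19 and Tspan11 by -1.17, while Col18a1 rose by 0.69 and Lyz1 by 0.60. The count, 9, was 4 without 4T1 array 1 and 5 without 4T1 array 3 or 4T07 array 2.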

How the data were processed

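RNA of primary tumours was measured on a mouse exon array in 12 samples, 1 array each. The deposited table holds log2 signals per probeset. That scale was read from the values, and the summary, background correction and normalization used by the authors are not given in the sources used here. Values were used as deposited, 0 value columns were left out, and array medians ran from 7.21 to 7.57. For arrays, their number limits the precision.

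Probesets were named through the array's annotation and symbols updated through RefSeq GRCm38.p6: 207232 carried 1 gene, 3882 several and 16976 none, and only the first were used. The 16185 genes came from 14055 current, 2111 updated and 41 kept symbols. Gene levels, relative values and the rule are described above.

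All eligible probesets, and all their genes, were fitted with limma 3.58.1 in R 4.3.3 (1 mean per line, no covariate, eBayes, Benjamini-Hochberg adjustment), and the script was tested on simulated data. Genes named in the text are the 12 largest rises and falls, genes with at least 3 members, members on the fixed lists, the 4 smallest adjusted p-values in each direction of the tested contrasts and the 2 probesets nearest each side of the threshold. Others, such as those resting on 1 array or called by diffSplice, were chosen after their values were seen. The members and lists were chosen with earlier results of these data known. Alternatives were other gene levels, scalings and limits, each array left out, 168FARN array 1 alone, a replicate block and diffSplice. Deviations of same-numbered arrays correlated from -0.05 to 0.53 over 18 pairs for relative values (median 0.06) and from -0.01 to 0.27 for gene levels (median 0.12). All 3 pairs exceeded 0.1 in both for 168FARN with 4T07, but not for the pairs of lines that were tested, so the numbers were not taken as pairs. No 2 arrays were identical.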

Additional observations from a re-analysis of the deposited data

How the results depend on the processing

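The 156 members became 89 with the gene level as a mean of probesets, 91 with a probeset minimum of 7, 391 with none, 59 with a relative difference of at least 1 and 84 with a gene difference under 0.25. The genes on the epithelial-mesenchymal list with a member went from 7 to 4 with the minimum of 7, the limit of 1 or the limit of 0.25. Leaving out 1 array gave 142 to 231 members, the most without 4T07 replicate 3, and kept 108 to 132 of the original ones.

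Of the 16 members called between 168FARN and 67NR, 9 were called with a gene level over 8, against 0.402% of the eligible probesets. By diffSplice 39 members were called (13 of the 16), against 1.10%. Without 1 array 9 to 17 members were called, against 0.298% to 0.582%. Between 4T1 and 4T07, diffSplice called 7 against 0 by limma, and 0 were called without any 1 array. The 51 host genes called between 168FARN and 67NR became 25 with 168FARN array 1 alone and 38 to 58 without 1 array. The 9 called between 4T1 and 4T07 became 15 after quantile normalization, 16 after centring and 4 to 11 without 1 array, with 5 without 4T07 replicate 2 or 4T1 replicate 3 and 4 without 4T1 replicate 1. Splicing regulators called numbered 7 to 13 in the first contrast and 0 to 1 in the second without 1 array, the low of 7 being without 67NR replicate 2 or 168FARN replicate 2, and 2 in the second after quantile normalization or centring. The causes were not tested beyond what the fewer samples or probesets of each setting imply.

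With the replicate number as a block, 16 members were called between 168FARN and 67NR, 14 of them the same, against 0.512% of the eligible probesets. In that fit 55 and 10 host genes were called in the 2 contrasts. The labels' numbers were not shown to pair the arrays. All these alternatives were planned, and among the members named by the fixed criteria above 0 tests reversed direction. Ogfr, named after its values were seen, is outside that count, and its relative difference changed sign without 67NR array 1. Signal near background limits the 51 members with a line mean under 5.98.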
